A study of Mus musculus with 8 samples.

Results

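A set of 10 genes of the integrated stress response, led by Asns (asparagine synthetase), was followed in the livers of mice given the plant biflavonoid isoginkgetin (ISOGK). The members were picked by name from 16540 gene symbols in the count table, and all 10 were listed there. The set was chosen with results of this same comparison in view: the large rise of Asns was already known, so the members' differences between groups are given below as a description, without p-values. The name of the set states what the genes are known for, and whether they moved together in these livers is a separate matter that the values below address.

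Bulk RNA-seq was performed on liver from 8 male Apoe-/- mice, which lack apolipoprotein E and develop hypercholesterolemia and atherosclerosis. All 8 mice, controls included, were on a Western diet, which the study's methods describe as a high cholesterol diet. The ISOGK group (n = 4) received intraperitoneal ISOGK at 20 mg/kg/day for 8 weeks, and the vehicle group (n = 4) received vehicle, labelled DMSO in the count table. Each library is labelled as 1 liver sample, the ages of these mice and their feeding state at collection are not given in the sources used here, and there is no Apoe wild-type or chow-fed group.

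The integrated stress response begins when a kinase phosphorylates the translation initiation factor eIF2, which lowers general protein synthesis while the mRNA of the transcription factor ATF4 is translated more. The kinases sense different stresses: GCN2 (Eif2ak4) senses amino acid shortage, PERK (Eif2ak3) unfolded protein in the endoplasmic reticulum, PKR (Eif2ak2) double-stranded RNA and HRI (Eif2ak1) haem shortage. ATF4, often with CHOP (Ddit3) or a C/EBP partner, then switches on genes for amino acid synthesis and transport, for redox defence and for damping the response itself. Much of the control of ATF4 and ATF5 is translational, so their mRNA levels do not report the amounts of protein.

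ATF4 and C/EBP proteins bind a composite site, the C/EBP-ATF response element, and its core TGATGNAA (N is any base) was searched on both strands of RefSeq promoter windows (250 bases before each transcript start to 50 after, build GRCm38.p6). The core was present in 1304 of 32851 windows (3.97%) and in 4 of the members' 12 windows, 1 each for Asns, Atf3, Chac1 and Trib3. Atf4, Atf5, Ddit3, Sesn2, Psat1 and Phgdh had no match in their windows. The cyclic AMP response element TGACGTCA, searched likewise, was in 588 windows (1.79%) and in 0 of the members' 12. Both motifs cannot start at the same base of a strand, and a match is a description of the sequence, not a bound site.

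The 4 matches to the pattern TGATGNAA are shown as a description of the sequence. Their part in the members' values was not tested. Each stretch has 30 bases, read 5′ to 3′ on the strand that carries the core, with the core in capitals.
Asns (chr6:7693214-7693243, minus strand): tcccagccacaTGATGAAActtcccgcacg
Atf3 (chr1:191183425-191183454, plus strand): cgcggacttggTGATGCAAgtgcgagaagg
Chac1 (chr2:119351038-119351067, minus strand): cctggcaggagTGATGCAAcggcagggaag
Trib3 (chr2:152344028-152344057, plus strand): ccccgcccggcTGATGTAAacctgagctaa
In Asns the core lay on the gene's own strand, at -23 to -16 from the RefSeq start, and in the other 3 genes it lay on the opposite strand. It was at -110 to -103 in Atf3, at -193 to -186 in Chac1 and, within the RefSeq transcript, at 15 to 22 in Trib3. The GENCODE annotation, used here for gene positions, has other starts for some of these minus-strand genes. It extends Asns to chr6:7693254 and Atf3 to chr1:191218039, so their cores lie inside those genes. It ends Trib3 at chr2:152344032, so the Trib3 core lies upstream of that gene. The Atf3 and Chac1 cores were the same letters, TGATGCAA.

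Levels are given as CPM, counts brought to a common library size with scaling by the trimmed mean of M-values (TMM), and differences as log2 fold changes of ISOGK against vehicle with their SE from the edgeR fit across all genes. Of the 10 members, 9 passed the low-count filter, which kept 12307 genes, and Phgdh did not. Among those 9, 2 (Asns and Atf5) were higher with ISOGK at an adjusted p under 0.05, 0 were lower and 7 did not pass. Over all genes tested, 4.11% were called higher and 3.44% lower. The ISOGK values lay wholly above the vehicle values for 2 of 10 members, again Asns and Atf5, and wholly below for 0, where the shares over all genes tested were 7.92% and 7.36%. Nothing is read from these counts, since the contrast was known when the set was made. For the same reason nothing is read from the median log2 fold change of the 9 members, 0.36 (7 positive, 2 negative), against 0.00176 over all genes tested. These 9 also include Psat1, which passed the filter through the treated group. In bulk liver, fewer cells of a type and less RNA per cell cannot be told apart.

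**Figure D1:**
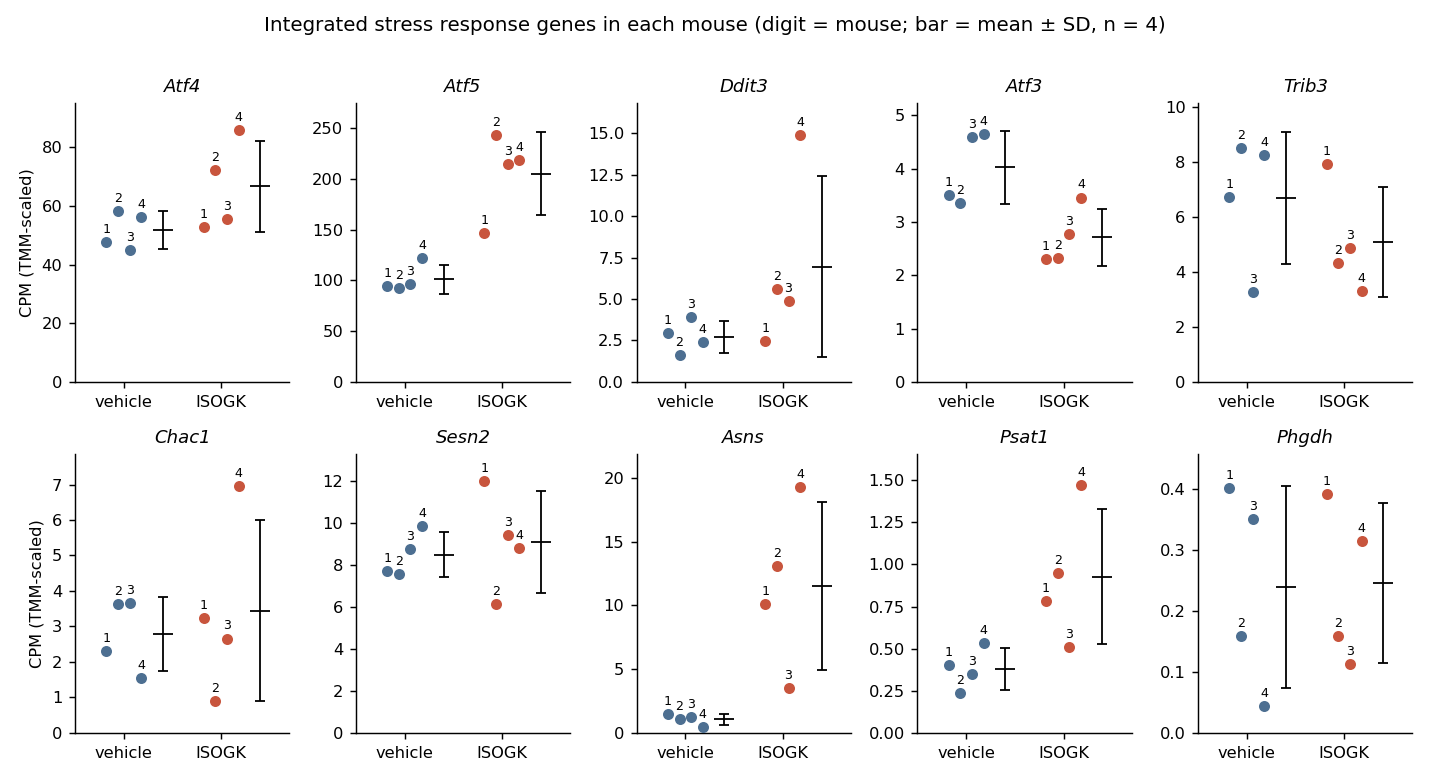
CPM of each of the 10 members (y axes, linear from 0, a scale per gene) in the 4 vehicle and 4 ISOGK mice, with the digit naming the mouse and the black bar the mean ± SD. Asns and Atf5 are separated by group, while the other 8 overlap, and ISOGK 4 is the highest mouse for Atf4, Ddit3, Chac1, Asns and Psat1. The share of all genes tested that were highest in ISOGK 4 was not counted, so this is no trait of the set. Genes outside it, such as Mat1a and Lars, were also highest there.

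Some libraries stood apart. Total counts were 19605286 to 24461854 in vehicle and 17457106 to 21626399 in ISOGK mice (two-sided exact permutation test, p = 0.20), whereas the TMM factors were 1.02 to 1.09 against 0.883 to 1.01 (p = 0.0286, the smallest that 4 against 4 allows), lowest in ISOGK 4. Pairs with ISOGK 4 were the least alike in the ISOGK group (chi-square per gene 85.9 to 99.8, against 33.1 to 67.1 for the other ISOGK pairs and 18.1 to 33.6 for vehicle pairs). Hepatocyte markers were all detected, and their sum was 156000 to 168000 CPM in vehicle and 146000 to 179000 CPM in ISOGK mice. Skeletal muscle markers summed to 79.0 CPM in vehicle 4 and to at most 0.584 CPM elsewhere, with 10 of 10 genes highest in vehicle 4. Log2 fold changes without ISOGK 4 or without vehicle 4 stand beside the members they moved most. Cholangiocyte markers summed to 27.5 to 34.8 CPM in vehicle and 28.2 to 69.1 CPM in ISOGK mice (two-sided exact permutation test, p = 0.114, adjusted p = 0.429), and neutrophil markers to 10.3 to 15.7 CPM and 12.1 to 28.0 CPM (p = 0.171, adjusted p = 0.429), with 1 of the 5 genes called higher in each list. Their part in the members' values was not tested.

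Asns makes asparagine from aspartate and glutamine. Its gene lies on the minus strand of chr6:7675169-7693254 (GRCm38). The vehicle mice had 1.46, 1.07, 1.21 and 0.491 CPM (29, 27, 31 and 11 counts), and the ISOGK mice had 10.1, 13.1, 3.51 and 19.3 CPM (205, 249, 62 and 369 counts). Every ISOGK mouse lay above every vehicle mouse, and the treated mice were themselves spread 5.51-fold, with ISOGK 3 lowest and ISOGK 4 highest. Mean Asns rose from 1.06 ± 0.409 to 11.5 ± 6.58 CPM (SD, n = 4), a ratio of 10.9 and a log2 fold change of 3.45 (SE 0.536). Without ISOGK 4 the log2 fold change was 3.08, without vehicle 4 it was 3.22 and without ISOGK 3 it was 3.73.

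The 205 bases upstream of the GENCODE exons of Asns, chr6:7693255-7693459 on the minus strand, are printed because this is the promoter of the member with the largest change. A further 22 bases lie between them and the core shown above. They contain neither searched motif, and hold 12 CpG sites at 62.0% G and C.
Asns upstream: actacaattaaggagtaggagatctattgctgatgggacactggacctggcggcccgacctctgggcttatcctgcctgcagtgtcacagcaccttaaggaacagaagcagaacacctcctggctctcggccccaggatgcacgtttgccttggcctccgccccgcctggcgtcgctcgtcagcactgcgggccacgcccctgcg

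Atf5, a bZIP factor related to ATF4 that is abundant in liver and drives mitochondrial stress genes, was the only other member to be separated by group. Vehicle mice had 94.3, 92.0, 96.3 and 122 CPM and ISOGK mice had 147, 243, 214 and 218 CPM. ISOGK 1 was the lowest treated mouse and still exceeded vehicle 4, the highest control. The mean went from 101 ± 14.1 to 205 ± 41.1 CPM, a ratio of 2.03 and a log2 fold change of 1.02 (SE 0.151), which was 1.12 without vehicle 4 and 0.99 without ISOGK 4. In exons Atf5 shares 82 bases with Nup62 and Il4i1 on the opposite strand, and whether counting used strand is not given in the sources used here. Nup62, a nuclear pore gene, was at 10.3 ± 1.36 and 12.5 ± 3.43 CPM (log2 fold change 0.27, adjusted p = 0.41 by edgeR), and Il4i1 was at 0.157 to 0.715 CPM, far below Atf5.

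Atf4, the central transcription factor of the response, overlapped between groups. Vehicle mice had 47.8, 58.3, 45.1 and 56.2 CPM and ISOGK mice 52.8, 72.1, 55.6 and 85.9 CPM. ISOGK 2 and ISOGK 4 were above all controls, while ISOGK 1 and ISOGK 3 lay inside their range. Means were 51.8 ± 6.39 and 66.6 ± 15.4 CPM, with a log2 fold change of 0.36 (SE 0.154), or 0.21 without ISOGK 4.

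Ddit3, which encodes CHOP, the factor that links a prolonged response to cell death, was high in a single mouse. It measured 2.96, 1.62, 3.93 and 2.41 CPM in vehicle and 2.45, 5.59, 4.86 and 14.9 CPM in ISOGK livers. ISOGK 4 stood well above the rest, ISOGK 2 and 3 were moderately above the controls, and ISOGK 1 was among them. Means were 2.73 ± 0.971 and 6.96 ± 5.48 CPM, and the log2 fold change of 1.35 (SE 0.54) became 0.65 without ISOGK 4. Ddit3 shares 68 exon bases with Mars1, the methionyl-tRNA synthetase gene on the other strand, which was at 41.1 ± 4.82 and 46.8 ± 5.60 CPM (log2 fold change 0.19, edgeR adjusted p = 0.34).

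Atf3, a stress-induced bZIP repressor that also answers to many acute signals, had its lower values in treated mice. It was at 3.51, 3.36, 4.59 and 4.65 CPM in vehicle and 2.31, 2.32, 2.77 and 3.46 CPM in ISOGK mice. Only ISOGK 4 reached the range of the controls and the other 3 were below it. Means were 4.03 ± 0.686 and 2.71 ± 0.541 CPM, with a log2 fold change of -0.57 (SE 0.198), or -0.71 without ISOGK 4. Summed Kupffer cell and macrophage markers were at 1330 to 1710 CPM in vehicle and 1080 to 1410 CPM in ISOGK mice (two-sided exact permutation test, p = 0.0571, adjusted p = 0.429 over the 10 marker lists), and their part in the Atf3 values was not tested. Atf3 carries the same TGATGCAA core as Chac1, printed above.

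Trib3, a pseudokinase that ATF4 and CHOP induce and that restrains them in turn, spanned much the same range in both groups. Its values were 6.72, 8.50, 3.27 and 8.26 CPM in vehicle and 7.95, 4.33, 4.86 and 3.30 CPM in ISOGK mice. The lowest mouse was vehicle 3, the 3 ISOGK mice numbered 2 to 4 were also low, and ISOGK 4 was the lowest treated mouse for Trib3. With means of 6.69 ± 2.41 and 5.11 ± 2.00 CPM, its log2 fold change was -0.38 (SE 0.331), or -0.22 without ISOGK 4 and -0.27 without vehicle 4. Without ISOGK 1 it was -0.68 and without vehicle 3 it was -0.61.

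Chac1, which degrades glutathione and is a sensitive readout of ATF4 in many cells, had the widest ratio of highest to lowest treated mouse among the tested members. Vehicle mice had 2.31, 3.64, 3.66 and 1.56 CPM and ISOGK mice 3.24, 0.897, 2.66 and 6.97 CPM. Both the lowest mouse (ISOGK 2) and the highest (ISOGK 4) were treated, 7.77-fold apart. With means of 2.79 ± 1.04 and 3.44 ± 2.55 CPM, its log2 fold change was 0.29 (SE 0.523), which turned to -0.31 when ISOGK 4 was left out and was 0.10 without vehicle 4.

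Sesn2, a sestrin that holds back mTORC1 signalling when leucine is short, was at 7.73, 7.59, 8.76 and 9.87 CPM in vehicle and at 12.0, 6.12, 9.44 and 8.80 CPM in ISOGK mice. The groups overlapped, with ISOGK 1 highest and ISOGK 2 lowest. With means of 8.49 ± 1.06 and 9.10 ± 2.42 CPM, its log2 fold change was 0.10 (SE 0.184), and its sign was not fixed, since it was -0.03 with library totals in place of TMM scaling and -0.06 without ISOGK 1. It was 0.18 without vehicle 4.

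The remaining members are the serine synthesis enzymes. Psat1, the phosphoserine aminotransferase, was at 0.401, 0.237, 0.350 and 0.536 CPM in vehicle (6 to 12 counts) and 0.785, 0.950, 0.509 and 1.47 CPM in ISOGK mice (9 to 28 counts). ISOGK 1, 2 and 4 exceeded the controls and ISOGK 3 fell just below vehicle 4. Means of 0.381 ± 0.124 and 0.928 ± 0.403 CPM gave a log2 fold change of 1.29 (SE 0.399), or 0.98 without ISOGK 4 and 1.49 without vehicle 4. But Psat1 entered the fit through the treated group: the filter level was 0.472 CPM, reached in 4 ISOGK libraries and in 1 vehicle library. Phgdh, the first enzyme of the same branch, had 1 to 9 counts in vehicle and 2 to 8 in ISOGK mice (0.0447 to 0.401 and 0.113 to 0.392 CPM), and no fold change is given for it.

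Per kilobase of annotated exon, which allows levels to be compared between genes, Atf5 was the most abundant member in vehicle liver at 50.8 ± 7.05 CPM per kb, followed by Atf4 at 22.0 ± 2.71 CPM per kb. Trib3 (3.15 ± 1.14), Sesn2 (2.44 ± 0.305), Atf3 (1.87 ± 0.318), Chac1 (1.71 ± 0.632) and Ddit3 (1.59 ± 0.567) came next, and the mean ± SD ranges of neighbours in this order overlapped. Asns was at 0.386 ± 0.149, and Phgdh (0.0960 ± 0.0669) and Psat1 (0.0896 ± 0.0291) were lowest and did not differ beyond their spread. In ISOGK liver the order of the first pair was kept, at 103 ± 20.6 for Atf5 and 28.2 ± 6.55 for Atf4, while Asns came next at 4.21 ± 2.41 CPM per kb, within the spread of Ddit3 at 4.06 ± 3.20. These SDs are over 4 mice, and exon length is the union over annotated isoforms.

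**Figure D2:**
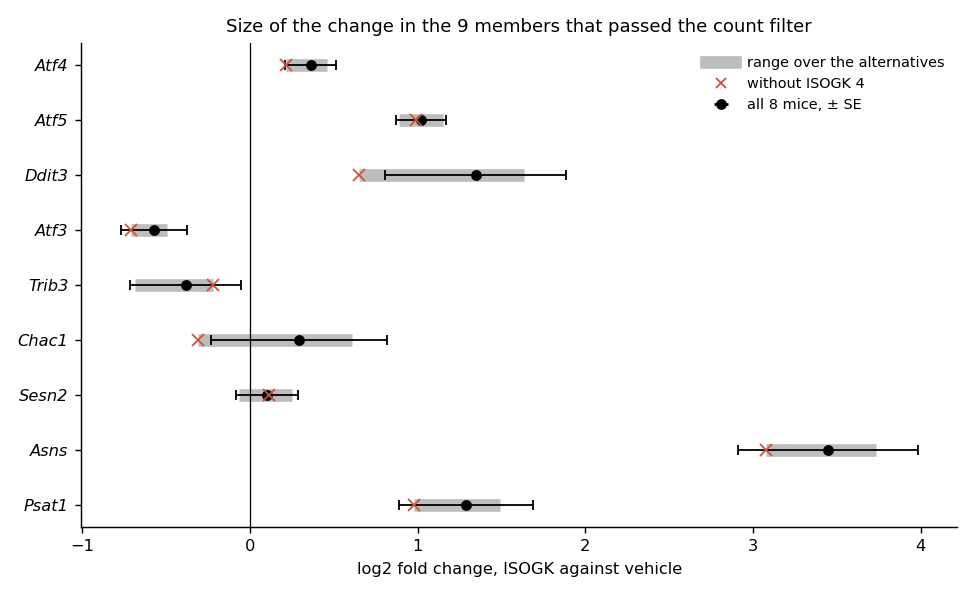
Log2 fold change of ISOGK against vehicle (x axis) for the 9 members in the fit, with points and bars for the estimate ± SE over 8 mice, grey bands for the range over the alternative settings, and crosses for the fit without ISOGK 4. Asns stays above 3 and Atf5 near 1 throughout, Ddit3 moves from 1.35 to 0.65 without ISOGK 4, and the bands of Chac1 and Sesn2 cross 0.

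Of 33 other known targets of ATF4 or CHOP, 29 were tested, of which 1 was called higher (Fgf21), 1 lower (Cebpg) and 27 neither, with a median log2 fold change of 0.07. Against this and each list that follows stand the shares over all genes tested, 4.11% called higher and 3.44% lower. The lists, like the members, were chosen with earlier results of these data known. Their calls and adjusted p-values, taken from the fit over all genes, are therefore a description and no independent support. Fgf21, a liver-secreted hormone of fasting and amino acid shortage that PPARα also induces, was at 1.20, 0.712, 1.60 and 1.30 CPM in vehicle and 5.05, 12.2, 7.75 and 13.4 CPM in ISOGK mice. All treated mice were above all controls, with a log2 fold change of 2.99 (SE 0.342, edgeR adjusted p = 0.00122). Cebpg, a C/EBP protein that pairs with ATF4, fell from 46.6 ± 1.39 to 33.3 ± 4.01 CPM without overlap (log2 fold change -0.48, edgeR adjusted p = 0.0131). Vldlr, a lipoprotein receptor induced by ATF4 in stressed liver, was at 4.52 ± 0.345 and 2.77 ± 0.863 CPM without overlap (-0.71, edgeR adjusted p = 0.068, not called). Vldlr passed the threshold in 3 of 16 alternatives: library totals in place of TMM, DESeq2 and without ISOGK 3.

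Unlike Fgf21, the reporters Gdf15, Ddit4 and Nupr1 did not pass the test. Gdf15, a stress hormone, had 2.73 ± 0.636 CPM in vehicle and 3.37 ± 1.42 CPM in ISOGK mice. Ddit4, an inhibitor of mTORC1, was at 9.02 ± 5.13 and 8.45 ± 2.25 CPM, and the stress-induced chromatin protein gene Nupr1 at 1.20 ± 0.170 and 1.32 ± 0.249 CPM. Slc7a11, the cystine transporter, was below the filter at 0.157 to 0.514 CPM over all 8 mice.

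Upstream, 0 of the 19 tested genes for eIF2 kinases, eIF2 and eIF2B subunits and phosphatase regulators were called higher and 2 were called lower (median 0.07). The 2 were kinases. PKR (Eif2ak2) fell from 12.1 ± 0.820 to 7.98 ± 1.03 CPM (log2 fold change -0.59, edgeR adjusted p = 0.0155), and GCN2 (Eif2ak4) from 8.95 ± 0.542 to 6.34 ± 0.474 CPM (-0.50, edgeR adjusted p = 0.029). The PKR call was lost without vehicle 3 (edgeR adjusted p = 0.0553), and the GCN2 call without any 1 of the 4 vehicle mice, ISOGK 1 or ISOGK 2 (0.0803). PERK (Eif2ak3) was at 13.0, 13.7, 11.9 and 14.2 CPM in vehicle and 12.4, 10.4, 19.0 and 25.3 CPM in ISOGK mice, so that ISOGK 3 and 4 were high and ISOGK 2 was the lowest of all. HRI (Eif2ak1) had near-equal means of 49.0 ± 2.09 and 50.6 ± 3.63 CPM. The phosphatase subunits that end the response, Ppp1r15a (14.1 ± 2.26 and 14.8 ± 3.25 CPM) and Ppp1r15b (100 ± 5.66 and 93.0 ± 11.7 CPM), overlapped between groups.

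Among the 20 cytosolic aminoacyl-tRNA synthetases, which charge tRNAs and include many ATF4 targets, 3 were called higher and 1 lower (median 0.10). The leucine enzyme Lars rose by 0.52 on the log2 scale (edgeR adjusted p = 0.023), the glycine enzyme Gars by 0.40 (0.0241) and the phenylalanine enzyme subunit Farsb by 0.39 (0.0465), while Eprs, the glutamate and proline enzyme, changed by -0.44 (0.0281). Nars, which uses the asparagine that Asns makes, was at 79.4 ± 5.47 and 76.8 ± 6.80 CPM and did not pass. None of these 4 calls held in every leave-one-out fit: Lars and Gars were lost without vehicle 1, 2 or 3 or ISOGK 2 (highest edgeR adjusted p 0.0828 and 0.0904), Eprs without vehicle 1 or 2 or ISOGK 2 or 4 (0.0828), and Farsb without any 1 of the 4 vehicle mice, ISOGK 2 or ISOGK 4 (0.141).

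Of 24 genes of serine, glycine and one-carbon metabolism examined here, 3 were called higher and 0 lower (median 0.04), and none of the 3 is a step of serine synthesis. Mat1a, which makes S-adenosylmethionine, rose from 5960 ± 722 to 13400 ± 1750 CPM (log2 fold change 1.17, edgeR adjusted p = 0.000726). Sdsl, a serine dehydratase-like enzyme, rose from 8.51 ± 0.856 to 27.5 ± 8.90 CPM (1.69, edgeR adjusted p = 0.00117). Ahcy, which hydrolyses S-adenosylhomocysteine, rose from 2830 ± 119 to 3900 ± 322 CPM (0.46, edgeR adjusted p = 0.0152), a call lost without ISOGK 2 (edgeR adjusted p = 0.0531). Psph, the last step of serine synthesis after Phgdh and Psat1, was at 2.78 ± 0.383 and 2.82 ± 0.553 CPM. The mitochondrial folate enzymes that ATF4 induces did not pass either, with Mthfd2 at 0.724 ± 0.189 and 0.815 ± 0.150 CPM and Shmt2 at 151 ± 4.66 and 132 ± 5.13 CPM.

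Around asparagine itself, 1 of 12 genes of asparagine, aspartate and glutamine metabolism was called, and it was higher (median 0.03). This was Asl, the argininosuccinate lyase of the urea cycle, which rose from 474 ± 44.8 to 935 ± 223 CPM (log2 fold change 0.98, edgeR adjusted p = 0.00336). Asrgl1, an asparaginase, was at 7.43 ± 1.24 and 8.10 ± 1.51 CPM and Gpt, alanine aminotransferase, at 143 ± 16.1 and 130 ± 20.7 CPM, both with overlap.

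The parallel arms of the unfolded protein response gave 0 higher and 1 lower call among 23 genes (median -0.10). The lower one was the sensor kinase IRE1 (Ern1), which fell from 75.1 ± 6.48 to 49.8 ± 7.25 CPM (log2 fold change -0.59, edgeR adjusted p = 0.00956). The chaperone BiP (Hspa5) was at 697, 606, 696 and 512 CPM in vehicle and 1010, 511, 819 and 1500 CPM in ISOGK mice. The co-chaperone Dnajb9 was at 41.4, 36.0, 34.6 and 32.5 CPM in vehicle and 46.8, 36.9, 55.8 and 113 CPM in ISOGK mice. Neither passed the test (edgeR adjusted p = 0.23 and 0.18). For both genes ISOGK 4 was highest, the mouse in which Atf4, Ddit3, Chac1 and Eif2ak3 were also highest. ISOGK 2 was level with the lowest control for Hspa5 and inside the control range for Dnajb9. Some related genes were not raised in ISOGK 4. Canx was at 203 CPM there, but all ISOGK mice (212, 158, 203 and 203 CPM) lay below the vehicle range of 219 to 281 CPM. It was not called (edgeR adjusted p = 0.0824). Dnajc3 was at 150 CPM in ISOGK 4 (142 to 220 CPM in vehicle). Ppp1r15b, at 83.4 CPM, was lower there than in any other mouse, and Trib3 was lower than in any other treated mouse.

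**Figure D3:**
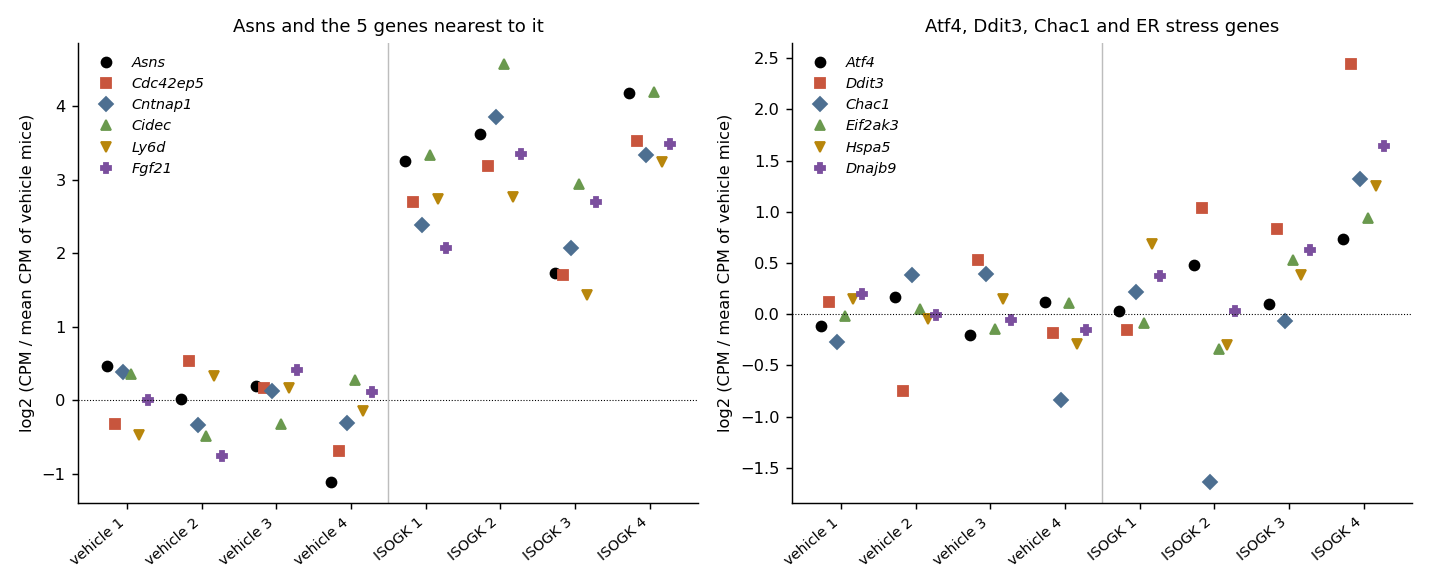
Log2 of each mouse's CPM over the vehicle mean (y axes) for Asns and the 5 genes nearest to it (left) and for Atf4, Ddit3, Chac1, Eif2ak3, Hspa5 and Dnajb9 (right), with mice on the x axis and a symbol per gene. On the left all ISOGK mice are raised and ISOGK 3 is the lowest of them for all but Fgf21, a likeness for which these genes were selected. On the right ISOGK 4 is the only mouse above the vehicle mean for every gene. The genes on the right are a selection: Trib3, Canx and Ppp1r15b, not drawn, were below the vehicle mean in ISOGK 4.

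The 5 genes whose profile was nearest to that of Asns were found by the root mean square difference over the 8 mice of log2 CPM, each gene centred on its vehicle mean. They were Cdc42ep5 (0.490), Cntnap1 (0.585), Cidec (0.717), Ly6d (0.718) and Fgf21 (0.771), and no other member was among them. Cidec, a lipid droplet protein gene, was at 12.3, 29.2, 9.39 and 22.3 CPM in ISOGK mice against 0.870 to 1.56 CPM in vehicle mice. Cdc42ep5 was at 6.52, 9.24, 3.28 and 11.6 CPM against 0.625 to 1.46 CPM. As with Asns, ISOGK 3 was the lowest treated mouse for Cidec and Cdc42ep5. The genes were selected for this likeness over the same mice, so the shared pattern follows from the selection and is no separate result.

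Relatives of the members and immediate early genes were examined for comparison. Among 14 relatives, 0 were called higher and 2 lower (median -0.16), namely Cebpg, given above, and Chac2, the constitutive paralogue of Chac1, which fell from 15.4 ± 1.48 to 9.98 ± 2.06 CPM (log2 fold change -0.63, edgeR adjusted p = 0.0256; lost without vehicle 1, 2 or 3 or ISOGK 2, highest adjusted p 0.0733). Among 18 immediate early genes, which answer within minutes to handling and death as well as to growth signals, 1 was higher (Myc, log2 fold change 1.02, edgeR adjusted p = 0.0183; lost without vehicle 2 or 3, highest adjusted p 0.0664) and 0 were lower (median 0.10). Fos, at 2.15 ± 1.06 and 3.25 ± 1.35 CPM, and Egr1, at 30.3 ± 17.7 and 24.9 ± 12.9 CPM, varied widely within both groups. Lists share some genes, so these counts are not independent of one another.

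**Figure D4:**
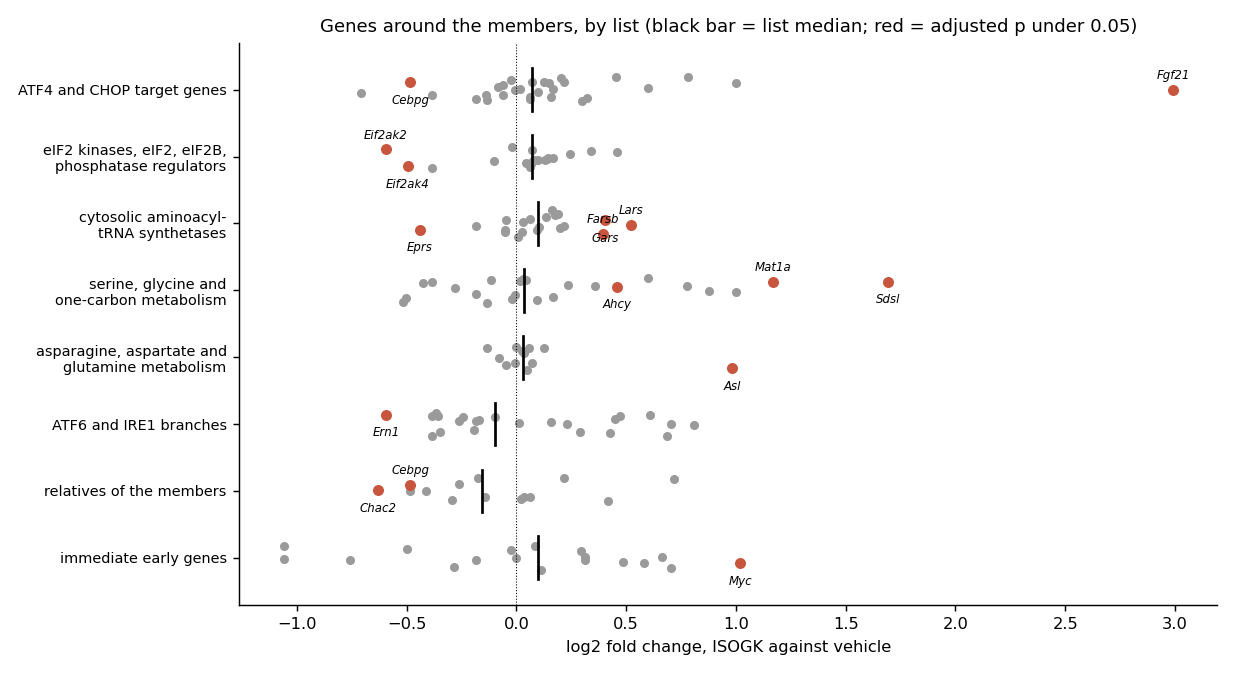
Log2 fold change of ISOGK against vehicle (x axis) for each tested gene of the 8 lists around the members (rows, points spread vertically for legibility), with red named points for adjusted p under 0.05, grey points for the others and black bars for list medians. The medians run from -0.16 to 0.10, and Fgf21 at 2.99 lies apart from the other ATF4 and CHOP targets.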

How the data were processed

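Libraries were prepared from liver total RNA with a SMARTER mRNA kit per the labels. The authors sequenced them single-end, aligned reads with HISAT2, counted genes with StringTie and normalized with DESeq2. The deposited table used here holds raw counts per gene symbol, before normalization, and the submitters' notes name mm10. The Ensembl release and strand setting are not given in the sources used here. The columns labelled DMSO were matched to the vehicle samples by their numbers. Samples were read as separate mice; if any were not, the p-values measure technical spread.

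Counts were fitted in R 4.3.3 with edgeR 4.0.16 (TMM, filterByExpr with a minimum count of 10 and total of 15, robust quasi-likelihood test, Benjamini-Hochberg adjustment over all genes tested). The fit was tested on simulated data. The members and lists were chosen with earlier results of these data known, so members carry no p-values and their count past the threshold is a description. List genes carry adjusted p-values from the fit over all genes, which are no independent test of a list. Named genes were drawn from the members, up to 3 genes per list with the smallest adjusted p, and reporters and kinases fixed by role. The 5 genes nearest to Asns and genes overlapping members were also taken, and Farsb was added because it completed its list's calls. Egr2, Eif2b3, Cebpa and Zfp36 met this rule, were not called in the main fit and are not described above. The ISOGK values lay wholly below the vehicle values for Egr2 and wholly above for Eif2b3. 1 listed gene is not reported here. Coordinates come from GENCODE M21 (GRCm38), which held 16211 of the 16540 symbols, and promoter sequences from RefSeq. Alternatives were DESeq2 1.42.0, limma 3.58.1 (voom), other scalings and filters, a replicate block and each library left out.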

Additional observations from a re-analysis of the deposited data

Results flagged for a closer look

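In groups of 4 mice, the gap of the highest or lowest value to the next was compared, as a share of the group's range, with Dixon's critical value. Of 44 groups of values examined, 2 exceeded it, against 2.2 that chance gives at 1 in 20. Atf5 in vehicle 4, at 122 CPM, lay above the other vehicle mice (92.0 to 96.3 CPM), with a gap of 0.86 of the range, and without this mouse the Atf5 log2 fold change was 1.12. The sum of skeletal muscle markers in vehicle 4 was 79.0 CPM, where vehicle 1, 2 and 3 had 0 to 0.584 CPM, with a gap of 0.993 of the range. Among vehicle mice, vehicle 4 was the lowest for 3 members and the highest for 4, and the part of muscle RNA in those values was not tested.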

How the results depend on the processing

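The 929 genes called by edgeR became 1405 with DESeq2, 827 with the replicate block and 379 to 1235 when each library was left out, lowest without vehicle 2 and highest without ISOGK 3. Library totals in place of TMM moved the median of all genes by -0.13 (log2). They gave 262 higher and 804 lower calls (24.6% higher, against 54.5%) and raised the called ATF4 and CHOP targets from 2 to 4. The added calls were Vldlr and Shmt2, both lower with ISOGK. The members were chosen on this contrast, so their log2 fold changes over the 16 alternatives are a description and no support. They were 3.08 to 3.73 for Asns, 0.89 to 1.15 for Atf5, 0.65 to 1.63 for Ddit3, -0.31 to 0.61 for Chac1, -0.06 to 0.25 for Sesn2, 0.21 to 0.46 for Atf4, -0.71 to -0.50 for Atf3 and -0.68 to -0.22 for Trib3. Psat1 ranged from 0.98 to 1.49 over 15 alternatives and had no value with a minimum of 10 counts in every library.

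Replicate numbers are shared by the groups but do not pair the samples: deviations of same-numbered mice correlated at -0.0144 to 0.0849, and the best match shared the number for replicate 3 alone. With the replicate block 3 ATF4 and CHOP targets were called. Fgf21, Cebpg, Mat1a, Sdsl, Asl and Ern1 kept their calls in all 16 alternatives, whereas Farsb lost its call in 10, Eif2ak4 in 7, Lars and Gars in 5, Eprs and Chac2 in 4, Myc and Ahcy in 2 and Eif2ak2 in 1. The cause of these shifts was not tested. Phgdh and Psat1, with 1 to 28 counts a library, are limited by depth.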
